A study of Mus musculus with 202 samples.

Results

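The Ecad+ cells of a mouse pancreatic cancer line were ordered by a proliferation score, and the 33 cells with the highest score were compared with the 33 cells with the lowest score, out of 100 Ecad+ cells and 197 cells in the whole series. The cells were selected on the score itself: for each cell, it is the mean of the log2 values of 8 genes of mitosis and proliferation, Mki67, Top2a, Cdk1, Ccnb1, Ube2c, Aurkb, Tpx2 and Birc5. These 8 genes are left out of every ratio and count that follows. The 34 cells in between are called the middle cells. The split follows measured values and not a label, so the terms used here are high-score and low-score cells.

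The line is labelled KPC, male, pancreatic ductal adenocarcinoma from a liver metastasis. KPC is the name of a genetic mouse model of pancreatic cancer, and the labels give no alleles beyond the name. All cells came from culture in DMEM with 10% serum at passages 4 to 6, were trypsinised, stained and sorted on E-cadherin, the adhesion protein encoded by Cdh1, and have no other treatment in the labels. Single cells were captured on the Fluidigm C1 and amplified with the SMARTer kit, giving 104 Ecad+ and 98 Ecad- libraries. As 1 cultured line with no separate cultures named, the Ecad+ cells form 1 sample. No test between cells was therefore made, and spreads are spreads over cells of that sample.

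A dividing cell passes through G1, copies its DNA in S phase, prepares in G2 and separates its chromosomes in M phase. Genes for licensing and copying DNA are switched on around the G1/S border, mainly by E2F factors. Genes for mitosis follow in G2 and M, held down in resting cells by the DREAM complex and switched on by its MuvB core with the transcription factors B-Myb and FoxM1, through promoter elements called CCAAT boxes and CHR (cell cycle genes homology region). A cell in G0 or early G1 expresses neither set strongly, so a low score for mitotic genes can mean G0, G1 or S phase.

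The score did not divide the cells at a natural gap on its upper side. It ran from 0.39 to 8.36, with medians of 1.35 in the low-score, 6.65 in the middle and 7.68 in the high-score cells. At the lower border the last low-score cell stood at 4.18 and the first middle cell at 4.29, with 5 cells within 0.5 of that border. At the upper border the last middle cell stood at 7.29 and the first high-score cell at 7.30, with 31 cells within 0.5. By level, 29 cells had a score under 3, 12 lay from 3 to under 6, 16 from 6 to under 7, and 43 at 7 or more. The comparison is thus between a loose low group and the top of a dense upper group.

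**Figure D1:**
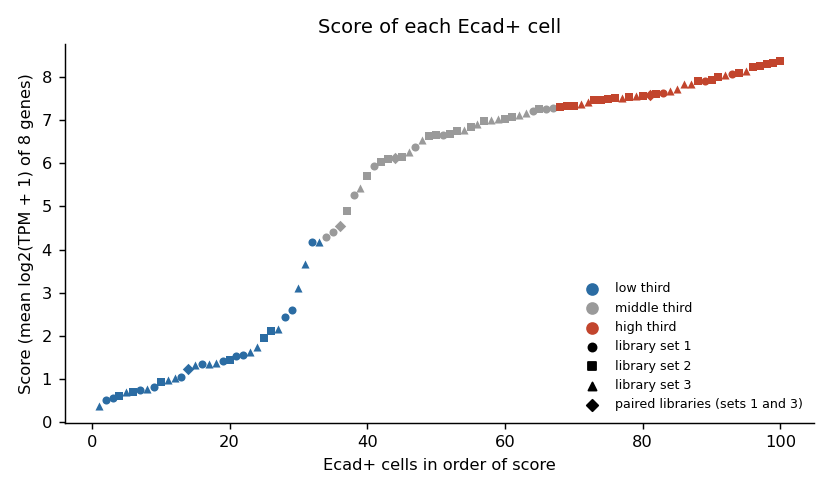
Score of each of the 100 Ecad+ cells (mean log2(TPM + 1) of the 8 score genes, vertical axis) in rank order (horizontal axis); colours mark the low-score, middle and high-score cells and symbols the library set. The curve climbs steeply between about rank 28 and rank 45 and is nearly flat across the border between middle and high-score cells at 7.30.

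Values are TPM, a transcript level scaled to its length and to the total of its library, which keeps no record of read depth. A median of 9870 genes was above 0 in low-score, 10402 in middle and 10767 in high-score cells, and mitochondrial genes took medians of 25.3%, 33.8% and 30.0% of TPM. The library names fall into 3 sets, and the libraries of sets 1, 2 and 3 number 13, 6 and 15 among low-score cells but 4, 19 and 11 among high-score cells. For this reason ratios are also given within each set. Detected genes and set both move with the split, and their part in the differences was not tested beyond the within-set values and alternatives given here. In all, 4 pairs of near-identical Ecad+ libraries (correlation 0.993 to 0.994 over all genes, next closest pair 0.939) were averaged and counted as 4 cells.

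The Ecad+ label was checked first. Cdh1 was above 0 in all 33 low-score and all 33 high-score cells, at medians of 38.6 and 35.0 TPM, while Epcam, another epithelial surface gene, was at a median of 0 in both and above 0 in only 10 and 16 cells. The mean of Cdh1 in Ecad- cells was 16.1 TPM. Markers of other cell types were low in most cells, but immune and hepatocyte markers reached higher sums in some. The median sums in low-score and high-score cells were 0.504 and 1.99 TPM for immune and 1.64 and 0.431 TPM for hepatocyte markers. Of 12 immune markers 6 were at 0 in every Ecad+ cell, among them Ptprc, Cd3e, Adgre1 and Tyrobp; the summed immune markers ran from 0 to 126 TPM in low-score and from 0 to 39.1 TPM in high-score cells. The one immune marker past the floor was Cd68, a lysosomal membrane gene, at means of 13.1 and 2.45 TPM. Fibroblast markers summed to at most 0.742 and 0.541 TPM, endothelial markers to at most 1.11 and 0.991 TPM, hepatocyte markers to at most 218 and 154 TPM with Alb at 0 in every cell, and acinar and endocrine markers to at most 23.2 and 17.8 TPM. Ttr, a hepatocyte and islet marker and the other gene past the floor, was at means of 14.8 and 7.02 TPM.

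The markers named for this split, Cdk1, Ube2c and Top2a, are score genes, so their levels describe the selection and check nothing. Cdk1 was at 0, 65.5 and 505 TPM (lowest, median, highest) in low-score cells and at 693, 1038 and 2102 TPM in high-score cells. Ube2c had medians of 0.148 and 1079 TPM, and Top2a of 0.541 and 137 TPM. The mitotic genes outside the score Plk1, Cdc20, Ccnb2, Ccna2, Cenpa and Hmmr describe the groups further, and each had a far higher median in the high-score cells. They come from the same cells that were ordered, so they are not independent evidence.

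Cdc20, the activator of the anaphase-promoting complex, was at 0, 0 and 13.3 TPM (lowest, median, highest) in low-score cells and at 13.1, 148 and 454 TPM in high-score cells. Only 1 low-score cell reached the lowest high-score cell. Its mean was 183 ± 109 TPM (SD, 33 cells) against 1.37 ± 3.45, a log2 ratio of 6.28, and the ratios in library sets 1, 2 and 3 were 5.78, 6.29 and 6.71. The log2 ratio here is that of the mean TPM plus 1 in each group of cells, which understates differences of genes with low levels. Hmmr, which encodes a spindle-associated hyaluronan receptor, was at 0, 0.0933 and 2.66 TPM against 37.2, 80.0 and 155 TPM. No low-score cell reached the lowest high-score cell, and the log2 ratio was 6.03. Overlap between the groups is given gene by gene here and below. Its share over all genes is not given, so it describes single genes within the split and is read no further. Plk1, the polo-like kinase that drives entry into mitosis, was at 0, 0 and 12.2 TPM against 9.13, 52.5 and 117 TPM, a log2 ratio of 5.23.

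Ccna2, the cyclin of S and G2 phase, was at 0, 0 and 37.0 TPM in low-score and at 89.0, 170 and 430 TPM in high-score cells, with no overlap and a log2 ratio of 5.17. Ccnb2, a mitotic cyclin, was above 0 in 6 low-score cells and in all 33 high-score cells. Its levels were 0, 0 and 42.2 TPM against 20.4, 103 and 239 TPM, and 3 low-score cells reached the lowest high-score cell. Cenpa, the histone variant that marks centromeres, was at 0, 3.79 and 69.2 TPM against 98.1, 213 and 440 TPM, a log2 ratio of 4.88. Of the 33 low-score cells 17 were above 0 for Cenpa, 27 for Hmmr, 10 for Cdc20 and 7 for Plk1. For Hmmr most of these levels were close to 0, with an upper quartile of 0.177 TPM.

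**Figure D2:**
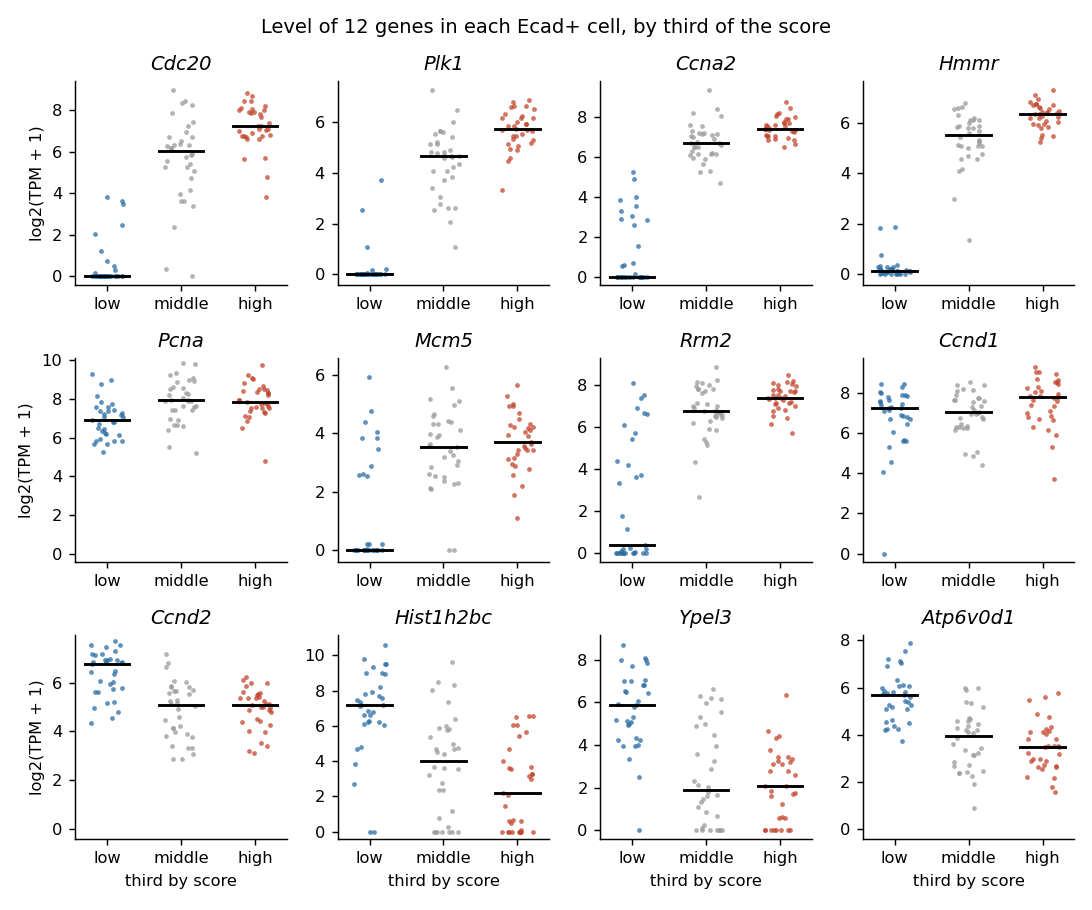
Level of 12 genes in each Ecad+ cell (log2(TPM + 1), vertical axis) for low-score, middle and high-score cells; each point is 1 cell and the bar is the median. Cdc20, Plk1, Ccna2 and Hmmr are at or near 0 in most low-score cells, Pcna and Ccnd1 overlap widely, and Ccnd2, Hist1h2bc, Ypel3 and Atp6v0d1 are higher in the low-score cells.

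A floor was set at a mean of 5 TPM over Ecad+ cells and detection in 10% of them. Across the 6827 genes past it, the median log2 ratio of high-score over low-score cells was -0.15. At a log2 ratio of at least 1 were 402 genes, or 5.89% of them, and at most -1 were 607, or 8.89%. This split depends on the scale: differences of mean log2 values gave 794 higher and 402 lower genes, medians over cells gave 813 and 568, centring on the all-gene median 508 and 417, and rescaling without mitochondrial and ribosomal protein genes 514 and 478. Differences of mean log2 values also shifted the all-gene median to 0.07. In each of the 3 library sets 1278 genes, 18.7%, had a ratio above 0, and 2319 genes, 34% of those tested, a ratio below 0. List medians below are given relative to the all-gene median of the same cells. Of the 402 higher genes, 139 belong to the cell cycle lists, and of the 82 genes at 3 or more, 52 belong to the lists of G2 and M phase, whereas 13 genes stood at -3 or less. Since the score is made of G2 and M genes, these counts describe the split and are read no further.

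The G2/M lists held 111 genes past the floor, and 110 of them lay above the all-gene median, 96 at a log2 ratio of 1 or more. Their median was 3.00, and 3.11, 3.66 and 2.54 within library sets 1, 2 and 3. A further 11 members stayed under the floor, for example Espl1, Kif15, Aspm and Wee1. With no floor at all, the median was 2.73. With library sets left out in turn and the score borders kept, it ran from 2.79 to 3.39. It was 1.64 when the cells were divided at the median score, which puts cells with a score of up to 6.65 into the low group, and 1.89 with a pseudocount of 10 TPM.

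Mitotic kinases and cyclins had a median of 3.72, with 18 of 18 genes at 1 or more. Bub1, a kinase of the spindle checkpoint, was at 0, 0 and 12.6 TPM in low-score cells, above 0 in 5 of them, and at 13.8, 64.3 and 240 TPM in high-score cells, with no overlap. Aurka, the Aurora kinase of the spindle poles, had means of 5.12 and 164 TPM and a log2 ratio of 4.75. Cdkn3, a phosphatase that acts on Cdk1 and Cdk2, had a log2 ratio of 5.01.

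Kinesins and spindle genes had the highest list median, 3.88, with 28 of 29 genes at 1 or more. Nusap1, which bundles spindle microtubules, was at 0, 0 and 12.6 TPM against 41.3, 128 and 334 TPM, a log2 ratio of 5.96. Prc1, which bundles microtubules of the central spindle, had means of 6.56 and 220 TPM. Kif11 and Kif20a, motor proteins of spindle assembly and cytokinesis, had log2 ratios of 3.54 and 4.67, and neither overlapped between the groups. The exception was Numa1, a spindle pole protein also present in the interphase nucleus, with means of 5.68 and 5.12 TPM and a log2 ratio of -0.13.

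Kinetochore and condensin genes had a median of 3.18, with 25 of 26 genes at 1 or more. Cenpf, a kinetochore protein that accumulates in G2, was at 0, 0.0343 and 7.41 TPM in low-score and at 16.5, 80.2 and 135 TPM in high-score cells. Knl1, the scaffold of the outer kinetochore, had medians of 0 and 87.9 TPM, and Ncapg, a condensin subunit, medians of 0 and 48.4 TPM.

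Genes of the anaphase-promoting complex and its checkpoint had a lower median, 1.77, and were mixed: 8 of 15 stood at 1 or more, and 8 of 15 were higher in each set. Beside Cdc20, the checkpoint gene Mad2l1 was at 0, 24.9 and 195 TPM against 99.5, 263 and 382 TPM, a log2 ratio of 2.83. Fbxo5, the complex's inhibitor Emi1, had a log2 ratio of 3.10. Cdc27, a core subunit, had a log2 ratio of 0.53 and differed in sign between sets (-0.58, 0.54 and 0.98). Fzr1, the activator of the complex in late mitosis and G1, had medians of 5.32 and 19.2 TPM and a log2 ratio of 1.61. The one member below the all-gene median was Pttg1, which encodes securin, at medians of 68.7 and 49.3 TPM and a log2 ratio of -0.70. It was lower in the high-score cells in each set (-0.67, -0.89 and -0.69), against the direction of the other mitotic genes.

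Chromatin and tubulin genes that accompany proliferation had a median of 1.63, with 17 of 23 at 1 or more. Hmgb2, a DNA-bending chromatin protein, had medians of 17.4 and 154 TPM, and Hmgn2, a nucleosome-binding protein, of 40.1 and 331 TPM. The tubulin gene Tuba1b was at 9.86, 139 and 575 TPM against 443, 863 and 1790 TPM. Tuba1b, Tuba1c and Tubb5 have close paralogs among which reads can be divided, so their single ratios of 2.44, 2.48 and 1.85 are uncertain.

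Genes outside the lists that ranked highest by their smallest ratio over the 3 sets were also mitotic. Depdc1a, a spindle-associated gene, was at 0, 0 and 9.92 TPM against 19.5, 81.4 and 370 TPM, a log2 ratio of 6.30. Shcbp1, which acts at the midbody in cytokinesis, had medians of 0 and 149 TPM. Fam64a, a gene of mitotic progression, was above 0 in 2 low-score cells and had a log2 ratio of 5.62. Ckap2l, a spindle protein, had a log2 ratio of 4.75.

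The promoters of the G2/M genes share elements that the score did not use. In RefSeq windows of 250 bases before to 50 bases after the start of each gene (GRCm38.p6, the build also called mm10), a CCAAT box (CCAAT) and a CHR (TTTGAA or TTCGAA), each on either strand, occurred together in 49 of 109 windows, or 45.0%, for the 97 of 111 genes that could be matched. The share was 7.52% of all 32851 windows of that length and 6.39% of the windows of genes past the floor. Both elements are short, and a match in a window is a description of letters and not of binding. The 200 bases before the start of 3 such genes are shown, with CCAAT and CHR letters in capitals. Members with higher ratios than some of these, such as Hmmr, are not shown. The stretches were picked in order of ratio among those holding both elements, with at most 30 bases inside an exon. With 9, 0 and 6 bases inside an exon of GENCODE M21, they lie at chr4:118437344-118437543 (minus strand, Cdc20), chr9:70421555-70421754 (minus strand, Ccnb2) and chr5:45669725-45669924 (plus strand, Ncapg), each read on the strand of the gene.
Cdc20: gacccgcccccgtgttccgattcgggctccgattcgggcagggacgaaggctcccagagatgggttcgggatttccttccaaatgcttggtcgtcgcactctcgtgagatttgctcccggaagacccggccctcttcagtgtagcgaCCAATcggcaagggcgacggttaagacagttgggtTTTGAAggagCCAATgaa
Ccnb2: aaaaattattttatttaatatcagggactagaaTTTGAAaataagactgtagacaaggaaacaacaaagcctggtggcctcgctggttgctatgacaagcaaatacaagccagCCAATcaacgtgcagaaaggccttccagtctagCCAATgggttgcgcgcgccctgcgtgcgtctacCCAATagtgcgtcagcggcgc
Ncapg: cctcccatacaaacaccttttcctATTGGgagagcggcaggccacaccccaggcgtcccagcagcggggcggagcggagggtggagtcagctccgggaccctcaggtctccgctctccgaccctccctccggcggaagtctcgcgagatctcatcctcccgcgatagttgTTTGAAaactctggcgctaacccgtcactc

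In Cdc20 the CHR starts 18 bases before the gene start, between CCAAT boxes at 53 and 8 bases. In Ncapg it starts 30 bases before the start, and the CCAAT box lies on the other strand. Ccnb2 has 3 CCAAT boxes, starting 87, 54 and 21 bases before the start, and the only CHR of the stretch lies 167 bases before it.

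The genes of G1/S differed less between the groups, which were cut on a score made of G2 and M genes. The size of this contrast therefore describes the split and is read no further. Of 63 genes past the floor in the 3 lists, 61 lay above the all-gene median and 38 at 1 or more, with a median of 1.24, and 59 were higher in each set. Within sets 1, 2 and 3 the median was 1.73, 1.64 and 1.05. A further 13 members stayed under the floor, among them Orc1, Cdc7, Brca1 and Brca2. When a library set was left out and the cells were divided anew, the value depended on the set: it was 0.74 without set 1, where the low group reached up to a score of 5.71, and 2.12 without set 2, where it ended at 1.75. With the borders kept it was 1.07 without set 1 and 1.29 without set 2. Division at the median score gave 0.66, the 25 highest against the 25 lowest cells 1.88, and a pseudocount of 10 TPM 0.83.

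DNA replication licensing and origin genes had a median of 1.24, with 10 of 18 at 1 or more. Mcm5, a subunit of the replicative helicase, was at 0, 0 and 60.0 TPM in low-score and at 1.13, 11.9 and 48.9 TPM in high-score cells. The highest level of Mcm5 among both groups was thus in a low-score cell, although only 15 of the 33 low-score cells were above 0. Its log2 ratio was 1.33, but 0.47 without set 1 and 2.60 without set 2, with the cells divided anew each time. With the borders kept these values were 1.11 and 1.24. Mcm6, another subunit, had means of 61.7 and 59.3 TPM and a log2 ratio of -0.06. Dbf4, the activator of the Cdc7 kinase that fires origins, was the highest of the list at 2.63, with medians of 7.07 and 55.5 TPM. Cdt1, which loads the helicase in G1, had a log2 ratio of 0.55, and Gmnn, its inhibitor geminin, of 1.12, or 0.65 without set 1 divided anew.

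DNA synthesis and nucleotide genes also had a median of 1.24, and all 37 lay above the all-gene median, 23 at 1 or more. Pcna, the sliding clamp of DNA polymerases, was at 38.1, 119 and 618 TPM in low-score and at 26.4, 226 and 853 TPM in high-score cells, so that the groups overlapped over most of their range. Rrm2, the regulated subunit of ribonucleotide reductase, was at 0, 0.301 and 275 TPM against 52.7, 170 and 358 TPM, and 8 low-score cells reached the lowest high-score cell. Tk1, thymidine kinase, had medians of 13.5 and 148 TPM and a log2 ratio of 2.24, and Tyms, thymidylate synthase, medians of 49.6 and 188 TPM and a log2 ratio of 1.71. Hells, a chromatin remodeller of S phase, had a log2 ratio of 1.07 that ranged from 0.28 in set 3 to 2.84 in set 2, and of 0.13 without set 1 with the cells divided anew.

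Homologous recombination and repair genes had a median of 1.40 over 8 genes, 5 of them at 1 or more. Chek1, the kinase of the replication checkpoint, was above 0 in 19 low-score and 32 high-score cells, and the highest low-score cell, at 81.9 TPM, stood above the highest high-score cell, at 78.1 TPM. The log2 ratio of Chek1 was 1.40, and 0.45 without set 1 with the cells divided anew. Msh6, of mismatch repair, had a log2 ratio of -0.18.

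Matches to 4 E2F words (TTTGGCGC, TTTCCCGC, TTTGCCGC or TTTCGCGC, on either strand) occurred in 19 of 58 promoter windows of the G1/S genes, or 32.8%, for 49 of 63 genes matched. The share was 2.26% of all windows and 4.42% of the windows of genes past the floor. In the windows of the G2/M genes it was 10.1%, while CCAAT and CHR together occurred in 12.1% of the windows of G1/S genes. For 2 genes of DNA copying the 200 bases before the start are shown, with the E2F words in capitals, none of them within an exon of GENCODE M21. They are chrX:93632156-93632355 (minus strand) for Pola1, the catalytic subunit of DNA polymerase alpha, and chr8:75109309-75109508 (plus strand) for Mcm5.
Pola1: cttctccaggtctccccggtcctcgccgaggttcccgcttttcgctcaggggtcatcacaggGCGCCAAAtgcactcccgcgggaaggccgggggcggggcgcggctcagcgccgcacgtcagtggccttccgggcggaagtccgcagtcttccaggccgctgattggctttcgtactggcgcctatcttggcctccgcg
Mcm5: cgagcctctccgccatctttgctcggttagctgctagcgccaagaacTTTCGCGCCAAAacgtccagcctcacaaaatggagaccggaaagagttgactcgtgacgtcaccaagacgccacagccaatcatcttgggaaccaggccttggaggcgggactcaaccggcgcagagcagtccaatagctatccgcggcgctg

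In Mcm5 an E2F word on each strand overlaps the other, starting 153 and 149 bases before the gene start. Pola1 has a single word 138 bases before its start. Pola1 itself was at 0.115, 8.01 and 56.1 TPM in low-score and at 6.53, 26.3 and 82.0 TPM in high-score cells.

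Levels per cell set the G2/M and G1/S genes side by side. Averaged over the 111 G2/M genes, the log2 level was 2.66 ± 0.64 (SD, 33 cells) in low-score, 5.33 ± 0.45 in middle and 6.04 ± 0.23 in high-score cells, and no low-score cell reached the lowest high-score cell, at 5.59. Averaged over the 63 G1/S genes it was 3.08 ± 1.18, 4.79 ± 0.90 and 5.04 ± 0.55. The G1/S level spread more widely among the low-score cells, from 1.51 to 6.00. For G1/S, 9 low-score cells reached the lowest high-score cell, at 3.66, and 3 reached the high-score median of 5.10. These 9 cells had scores of 1.39 to 4.18 and G2/M levels of 2.53 to 4.61. The low-score cells therefore include some with a G1/S level within the range of the high-score cells, and the data do not show that every low-score cell was out of the cycle. Between the middle and the high-score cells the G2/M genes still differed by a median of 0.37 relative to all genes, while the G1/S genes had a median of -0.11. In the middle cells over the low-score cells, the medians were 2.67 and 1.35.

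**Figure D3:**
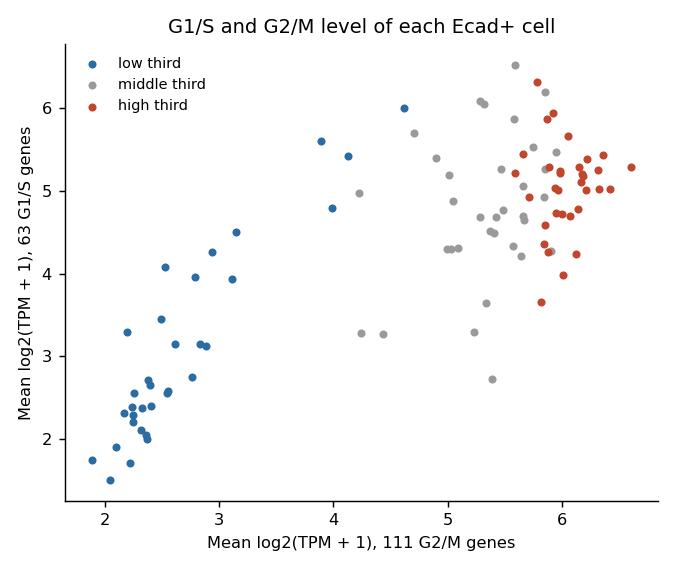
Mean log2(TPM + 1) of the 111 G2/M genes (horizontal axis) and of the 63 G1/S genes (vertical axis) in each of the 100 Ecad+ cells. Low-score cells climb from low values of both to a G2/M level of 4.61 and a G1/S level of 6.00, while middle and high-score cells overlap on the vertical axis (2.72 to 6.52 and 3.66 to 6.32) and high-score cells lie furthest right.

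Regulators of the cycle differed less as groups. Of 13 cell cycle transcription factors 9 lay above the all-gene median and 5 at 1 or more, with a median of 0.57. Foxm1, the forkhead activator of G2 and M genes, was at 0, 0 and 4.47 TPM in low-score and at 4.15, 12.6 and 63.0 TPM in high-score cells, a log2 ratio of 3.51. Mybl2, which encodes B-Myb, had medians of 0 and 5.75 TPM and a log2 ratio of 2.23, and Lin9, of the MuvB core, a log2 ratio of 1.39. E2f8, a repressor made in S phase, had a log2 ratio of 2.38. E2f4 and Tfdp1, which are made throughout the cycle, had log2 ratios of 0.35 and 0.41. Of the pocket proteins, Rbl1 (p107) had a log2 ratio of 1.28 while Rbl2 (p130), known from quiescent cells, had one of -0.98 at means of 5.33 and 2.20 TPM, under the floor.

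The D cyclins bring growth signals to the cell cycle, and Ccnd1 and Ccnd2 had ratios of opposite sign. Ccnd1 was at 0, 149 and 346 TPM in low-score and at 11.9, 218 and 607 TPM in high-score cells. Its log2 ratio of 0.68 was close to that in each set (0.69, 0.71 and 0.83), but ran from 0.13 to 0.93 over the alternatives. The middle cells, at a mean of 153 TPM for Ccnd1, resembled the low-score mean of 150 TPM more than the high-score mean of 241 TPM. Ccnd2 was at 19.2, 106 and 207 TPM in low-score and at 7.57, 33.3 and 74.0 TPM in high-score cells. No high-score cell reached the low-score median of Ccnd2, and 20 of the 33 low-score cells stood above the highest high-score cell. Its log2 ratio was -1.47, and -1.46, -1.24 and -0.94 in the sets. For Ccnd2 the middle cells, at a mean of 38.2 TPM, resembled the high-score mean of 34.3 TPM more than the low-score mean of 96.9 TPM. Ccnd3, the other D cyclin, stayed under the floor, with a mean of 1.17 TPM and 12 cells above 0 among low-score cells, a log2 ratio of -1.12 and a negative ratio in each set (-1.38, -0.90 and -0.88). The E cyclins Ccne1 and Ccne2, of the G1/S border, had log2 ratios of 0.21 and 0.05, with the middle cells highest at 15.1 and 18.6 TPM. Over the 7 G1 cyclins and kinases past the floor the median was 0.20, with none at 1 or more and only Ccnd2 at -1 or less.

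Inhibitors of cyclin-dependent kinases and targets of p53 had a median of -0.28 over 15 genes, 4 of them at -1 or less and 6 lower in each set. Over all genes past the floor these shares were 8.89% and 34%, so the count lower in each set lay near the all-gene share. Per cell, the mean log2 level of the list was 3.72 ± 0.62 in low-score and 3.54 ± 0.39 in high-score cells. The high-score range of 2.90 to 4.28 lay within the low-score range of 2.57 to 5.14. Btg2, an antiproliferative gene, was at 0, 22.5 and 104 TPM in low-score and at 0, 4.62 and 36.4 TPM in high-score cells, a log2 ratio of -1.84. Cdkn1a, which encodes p21, was above 0 in 22 and 25 cells with medians of 16.0 and 5.81 TPM and a log2 ratio of -1.72. The highest cells for Cdkn1a stood at 378 and 96.9 TPM, and 9 high-score cells reached the low-score median. The ratio of Cdkn1a was -0.82 as a difference of mean log2 values, -0.81 with division at the median score, and -0.38 with a score corrected for the number of detected genes. Cdkn1b, which encodes p27, stayed under the floor at means of 2.15 and 1.82 TPM. Mdm2 and Ccng1, further p53 targets, had log2 ratios of -0.62 and -0.64, and Trp53 itself one of 0.40. Gadd45a, a stress-induced p53 target, was at -1.30, but at -0.35 without set 1 with the cells divided anew. Mxd4, a Max partner that opposes Myc, had medians of 13.1 and 0.830 TPM and a log2 ratio of -2.49, whereas Myc had one of -0.29.

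Clustered histone genes, whose messages are mostly made for S phase and mostly lack a poly(A) tail, split into groups with opposite signs. The values do not tell messages with a tail from those without, so a level here need not be that of an S phase message. Of 8 past the floor, 4 stood at 1 or more and 3 at -1 or less, so their median of 1.23 describes neither, and it ranged from -2.79 to 2.55 over the alternatives. Hist1h4d was at 0, 0.384 and 31.1 TPM in low-score and at 0, 28.7 and 235 TPM in high-score cells, a log2 ratio of 3.06. Hist1h2ag and Hist2h2ac had log2 ratios of 2.53 and 2.58. Hist1h2ae had one of 2.35, but -0.54 in set 1 against 2.40 and 4.00 in sets 2 and 3. Hist1h2bc went the other way: it was at 0, 141 and 1557 TPM in low-score and at 0, 3.53 and 93.6 TPM in high-score cells. Of the 33 low-score cells 22 stood above the highest high-score cell for Hist1h2bc, and no high-score cell reached the low-score median. Its log2 ratio of -3.78 (-5.59, -3.29 and -3.65 in the sets) was among the lowest of all genes. Hist2h2aa1 and Hist1h1c had log2 ratios of -1.94 and -1.08, the latter -0.13 with a score corrected for the number of detected genes. Histone genes are near-identical copies among which reads can be divided, so single members are uncertain.

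Outside the cell cycle, ribosome assembly genes were higher in the high-score cells. All 19 lay above the all-gene median, 6 at 1 or more, with a median of 0.84, and 15 were higher in each set. Over all genes past the floor, 5.89% stood at 1 or more and 18.7% were higher in each set. Ncl, which encodes nucleolin, was at 4.47, 44.6 and 160 TPM against 16.6, 115 and 274 TPM. Nop56, of the complex that methylates ribosomal RNA, had medians of 239 and 600 TPM and a log2 ratio of 1.26. Npm1, nucleophosmin, had a log2 ratio of 0.85. Ribosomal protein genes had a median of 0.23, with 41 of 47 above the all-gene median and none at 1 or more.

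Genes of autophagy and the lysosome, the compartment that degrades and recycles cell contents, had the lowest median of the lists with more than 1 gene past the floor, -1.16. Of 19 genes past the floor 12 stood at -1 or less, and 18 were lower in each set. Over all genes past the floor these shares were 8.89% and 34%. The median was -1.41, -1.24 and -0.96 in sets 1, 2 and 3. Sqstm1, the autophagy receptor p62, was at 57.0, 231 and 2862 TPM in low-score and at 24.9, 67.2 and 224 TPM in high-score cells. No high-score cell reached the low-score median of Sqstm1, and 18 low-score cells stood above the highest high-score cell. Its log2 ratio was -2.38, with -3.58, -2.26 and -1.47 in the sets.

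Atp6v0d1, a subunit of the proton pump that acidifies the lysosome, was at 12.5, 51.3 and 233 TPM against 1.99, 10.3 and 53.8 TPM, a log2 ratio of -2.10. Atp6v1h, another subunit, had medians of 50.6 and 20.7 TPM. The lysosomal enzymes Neu1, Ctsd and Ctsb had log2 ratios of -1.71, -1.31 and -1.11, and Hexa one of -2.63 at medians of only 4.44 and 0 TPM. Map1lc3b, the autophagosome protein LC3B, had medians of 162 and 47.7 TPM. Grn, which encodes the lysosomal protein progranulin and is in no list, had a log2 ratio of -1.65. Gla, an alpha-galactosidase, stood apart with a log2 ratio of -0.03. Per cell, the mean log2 level of the list was 5.75 ± 0.67 in low-score, 4.69 ± 0.61 in middle and 4.72 ± 0.41 in high-score cells. By this level the middle cells lay near the high-score cells. Relative to all genes, the list median was -0.77 in middle over low-score cells and -0.20 in high-score over middle cells.

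The word TCACGTGA, the core of the CLEAR element bound by TFEB and related factors, occurred in 5 of 14 promoter windows of these genes, or 35.7%, for 14 of 19 genes matched. The share was 0.974% of all windows and 2.17% of the windows of genes past the floor. This word was chosen after the levels of the list had been seen.

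**Figure D4:**
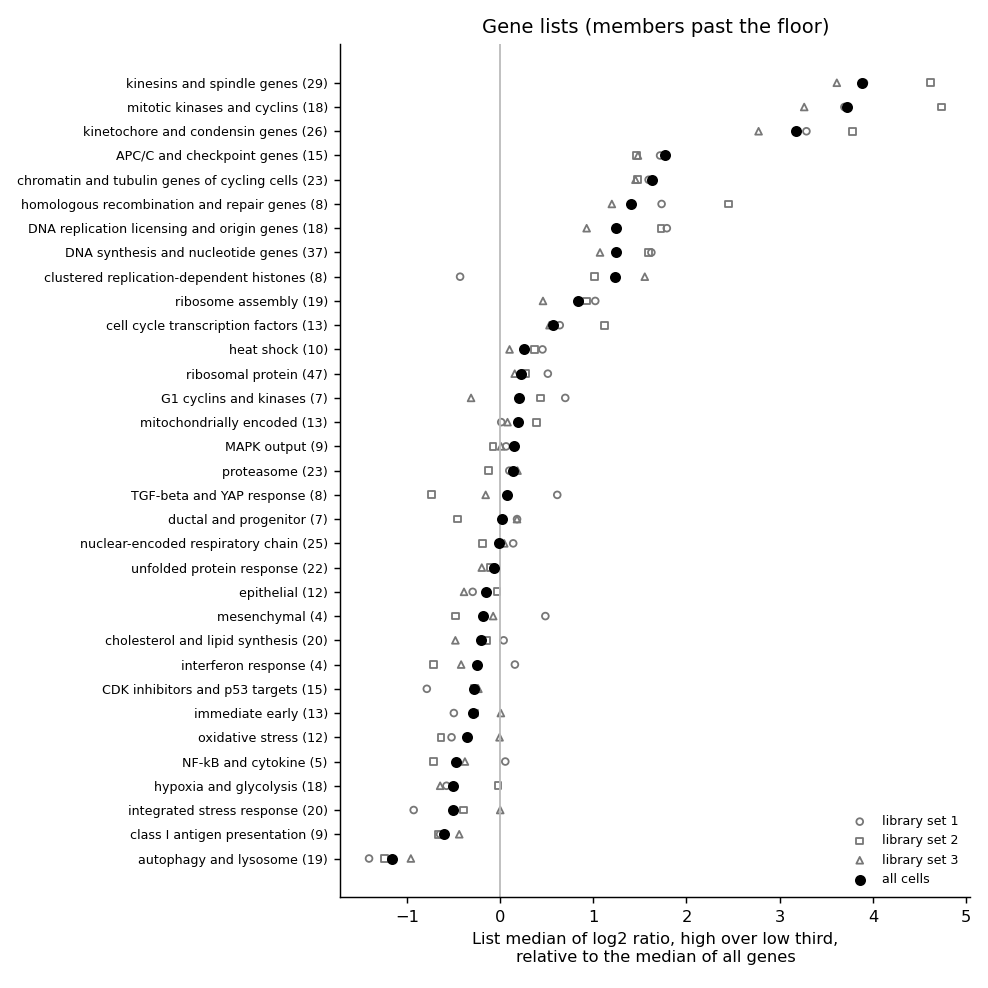
Median log2 ratio of each gene list, high-score over low-score cells, relative to the median of all genes (horizontal axis); filled circles are all cells, open symbols the 3 library sets, and the number of genes past the floor stands in brackets. The G2/M lists lie furthest right, up to 3.88, the G1/S lists near 1.24 and the autophagy and lysosome list furthest left at -1.16.

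Genes of class I antigen presentation, which display peptides to T cells and natural killer cells, had a median of -0.61. Of 9 genes 8 were lower in each set, against 34% of all genes past the floor. B2m, the invariant chain, was at 113, 391 and 612 TPM in low-score and at 27.2, 155 and 495 TPM in high-score cells. Only 2 high-score cells reached the low-score median of B2m. Its log2 ratio was -1.11 overall and -0.27, -1.59 and -0.81 in the sets, and -0.76 without set 2 with the cells divided anew. H2-K1 and H2-D1, heavy chains with near-identical relatives and therefore uncertain, had log2 ratios of -0.94 and -0.66. Tapbp, the loading factor tapasin, had a log2 ratio of -1.06. The peptide transporter gene Tap1 was at 0 in all high-score cells and above 0 in 1 low-score cell. No interferon response gene reached 1 either way, over 4 genes past the floor.

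Stress genes, which the title of the study names, differed in parts. The integrated stress response list had a median of -0.50 over 20 genes, but -0.93, -0.40 and 0.00 in sets 1, 2 and 3. Ddit3, which encodes the stress factor CHOP, was at 0, 17.5 and 895 TPM in low-score and at 0, 3.73 and 55.6 TPM in high-score cells, above 0 in 28 cells of each. Its log2 ratio of -2.73 was -4.43 in set 1, and -1.42 with set 1 left out and the cells divided anew. Chac1 and Trib3, targets of this pathway, had medians of 0 in both groups, with 10 low-score cells above 0 for each and 8 and 9 high-score cells. Their ratios of -3.04 and -2.87 reflect the upper range, which for Chac1 reached 188 and 28.0 TPM. Atf4, whose protein is controlled by translation, had a log2 ratio of -0.19. The unfolded protein response list had a median of -0.07. In it Hspa5, the chaperone BiP, had a log2 ratio of -0.13, while Dnajb9 and Herpud1, of protein degradation at the endoplasmic reticulum, had -1.46 and -1.61, the latter -0.82 without set 1 with the cells divided anew.

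The list of hypoxia and glycolysis had its median at -0.50, and 17 of its 18 genes lay under the median of all genes. At -1 or less stood 6 of the 18, against 8.89% of all genes past the floor. By set the list median was -0.57, -0.02 and -0.64, so that it was close to 0 in set 2. Aldoc, a brain-type aldolase that is in no list, had the lowest ratio of the 6827 genes. It was at 0, 173 and 3171 TPM in low-score and at 0, 10.9 and 115 TPM in high-score cells, a log2 ratio of -4.16 (-3.63, -2.69 and -4.05 in the sets). For Aldoc, 19 low-score cells stood above the highest high-score cell. Aldoa, the general form, had a log2 ratio of -0.83 and Ldha, lactate dehydrogenase, one of -0.23. Ndrg1, a hypoxia gene, had medians of 16.0 and 0.201 TPM. Per cell, the list stood at 6.60 ± 0.84 in low-score, 5.54 ± 0.66 in middle and 6.01 ± 0.48 in high-score cells, so here the middle cells were lowest.

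**Figure D5:**
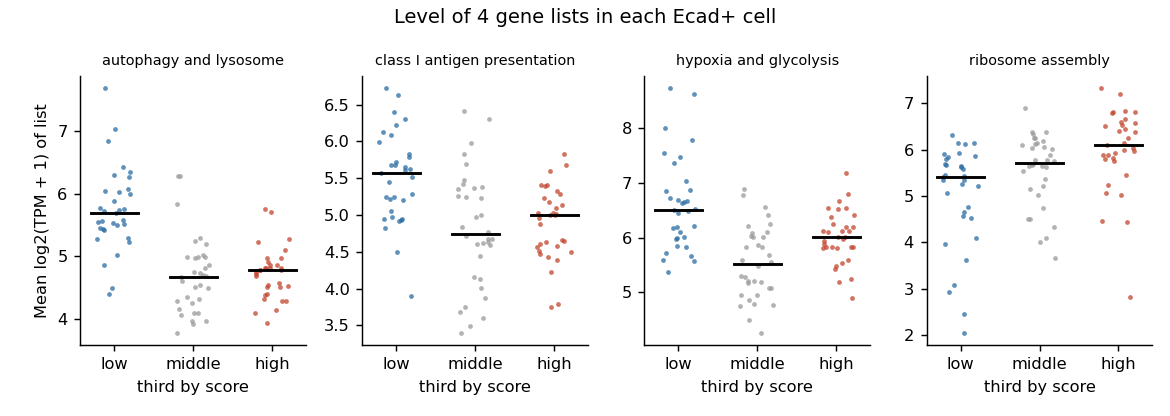
Mean log2(TPM + 1) of the members past the floor of 4 gene lists (vertical axis) in each Ecad+ cell, for low-score, middle and high-score cells; points are cells and bars medians. Autophagy and lysosome genes average 5.75, 4.69 and 4.72 in the 3 groups, ribosome assembly genes 5.02, 5.55 and 6.00.

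Among single genes, Ypel3, a gene linked to growth arrest, was at 0, 57.6 and 421 TPM in low-score and at 0, 3.17 and 79.7 TPM in high-score cells. Only 1 high-score cell reached the low-score median, and the log2 ratio was -3.44 (-4.39, -2.94 and -2.88 in the sets). Iah1, an esterase, had medians of 51.0 and 11.9 TPM, and no high-score cell reached the low-score median. Car8, a carbonic anhydrase-related protein, had a log2 ratio of -2.58, and Mt2, a metallothionein, one of -1.96, but -0.78 with medians over cells.

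The epithelial list differed little, with a median of -0.15 over 12 genes, and 1 of them, Jup, at -1 or less with a ratio of -1.13. Krt19, a ductal keratin, was at 280, 1374 and 3234 TPM in low-score and at 202, 603 and 1451 TPM in high-score cells. Its log2 ratio was -1.33, -1.06 and -0.64 in the sets. Cdh1 had a log2 ratio of -0.18 over all cells but -0.47, -0.67 and -0.49 within the sets. Krt8 and Krt7 had log2 ratios of -0.26 and 0.33, and Vim, a mesenchymal filament gene, one of 0.02. The remaining lists, among them proteasome, respiratory chain, cholesterol, MAPK and TGF-beta genes, had medians between -0.47 and 0.25.

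The Ecad- cells were placed on the same scale for comparison. Of 97 Ecad- cells 66 had a score at or under the border of the low-score cells and 2 a score at or over that of the high-score cells, and their median score was 1.85 against 6.65 in Ecad+ cells. The 66 had a G1/S level of 2.47 ± 0.82 and a G2/M level of 2.45 ± 0.58, against 3.08 ± 1.18 and 2.66 ± 0.64 in the low-score Ecad+ cells. Their autophagy and lysosome level was 6.03 ± 1.34, against 5.75 ± 0.67, and their class I level 4.84 ± 1.08, against 5.51 ± 0.62. Single class I genes differed in direction, but their values are mean TPM over all 97 Ecad- cells and not log2 levels of the 66. B2m had a mean of 674 TPM over all 97 Ecad- cells, against 386 TPM in low-score Ecad+ cells. H2-K1 went the other way, at 51.4 against 63.4 TPM. The mitochondrially encoded level of the 66 Ecad- cells was 6.94 ± 4.65, against 11.5 ± 1.35. TPM is scaled to the total of each library, and the part of this level in the other values was not tested. The epithelial level was 3.83 ± 1.62 against 6.17 ± 0.68. The sort gate separates these groups, and the differences were not tested.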

How the data were processed

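Single-cell RNA of 104 Ecad+ and 98 Ecad- libraries was analysed. Per the submitters' processing notes FastQC 0.11.5, kallisto (no version) and build mm10 were used; for the index, the summing to genes and any cell filter, steps are not given in the sources. The authors deposited log2 values for 28987 genes. Undoing the log2 and subtracting 1 gave library totals from 933711 to 987134, which is why they are taken as log2(TPM + 1); an exact 0 means listed at 0. Depth is unknown, and the chemistry marks neither molecules nor strand, so overlapping genes on opposite strands cannot be told apart.

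Libraries correlating over 0.97 were averaged as 1 cell. What the suffix in the library names that defines the 3 sets stands for is not stated. The score and the groups of cells were made from these values with Python 3.11.15, numpy 2.4.6 and pandas 2.3.3. The ratio calculation was run on shuffled Ecad+ values with known differences put in, and returned them. That run checks the arithmetic only, and not the choice of score, floor or lists. Ratios are log2 of mean TPM plus 1 over mean TPM plus 1, with a floor of 5 TPM in the mean of Ecad+ cells and above 0 in 10% of them. The lists, the members and the rule for the split were chosen with earlier results of these data known. Named genes are a fixed set; up to 4 members of each cell cycle list and 2 of each other list, by absolute ratio; and 10 genes in each direction ranked by the smallest of their 3 set ratios, provided that Ecad+ cells average 20 TPM and 25% of them are above 0. Named after their values were seen are Aurka, Kif11, Kif20a, Numa1, Cdc27, Fzr1, Pttg1, Ncapg, Cdkn3, Tubb5, Pola1, Mcm6, Hells, Tyms, Msh6, E2f4, Tfdp1, Rbl1, Rbl2, Ccnd3, Ccne2, Mdm2, Ccng1, Mxd4, Hist1h1c, Hist1h2ae, Hist1h2ag, Hist2h2ac, Npm1, Atp6v1h, Neu1, Ctsd, Ctsb, Map1lc3b, Grn, Gla, H2-D1, Tap1, Hspa5, Aldoa, Ldha, Krt7, Krt8, Cd68, Ttr, Gstt1, Gstt2, Gstt3, Ugt1a6a, Ugt2b5, Sult1d1, Ivl, Angpt2 and Tff1. Gene positions are from GENCODE M21 and promoter sequences from RefSeq, both on GRCm38. The authors' mean columns were not used here.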

Additional observations from a re-analysis of the deposited data

How the results depend on the processing

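Of 24 alternatives, 19 were planned and 5 chosen after seeing the data (cells of paired libraries left out, the mean of the within-set ratios, and each library set left out with the borders kept). No paired analysis was possible because cells carry no replicate number shared between the groups compared. Of 116 named genes at a log2 ratio of 1 or more either way, 108 kept their sign in every alternative that gave them a value. A value in all 24 alternatives was available for 38 of them, since a floor of 50 TPM left out 78. A ratio of 1 or more either way held for 68 of the 116 throughout, and 48 came under it in at least 1 alternative, 28 with a pseudocount of 10 TPM, 22 with division at the median score and 16 without set 1 divided anew. Chac1, Trib3, Spink4, Cd68, Ugt2b5 and Acsm3 had a ratio of 0 with medians over cells; Cxcl5 turned to 0.78 with mean log2 values and 0.30 with medians, and Txnip to 0.11 with a score corrected for the number of detected genes. Genes at 1 or more numbered 794 with mean log2 values, 813 with medians, 206 with division at the median score, 226 with a pseudocount of 10 TPM and 118 with a floor of 50 TPM. Genes at -1 or less numbered 402, 568, 373, 232 and 122 under the same settings, 1122 with no floor and 368 without the 10% of cells with the fewest genes. The G2/M median was 3.99 with medians, 1.64 with division at the median score, 1.89 with a pseudocount of 10 TPM, 2.11 with groups formed within each set, 2.11 without set 1 divided anew and 2.41 without the cells with the fewest genes. The G1/S median was 1.76 with mean log2 values, 1.83 with medians, 0.66 with division at the median score, 1.88 with the 25 highest and 25 lowest cells, 0.83 with a pseudocount of 10 TPM, 0.74 without set 1 and 2.12 without set 2. The autophagy and lysosome median was -0.87 with a pseudocount of 10 TPM. A larger pseudocount shrinks ratios of low genes by construction, and division at the median score brings middle cells into both groups; for the other settings the cause was not tested. Groups formed within each set shared 27 high-score and 26 low-score cells with the main ones, and a score corrected for detected genes shared 20 and 29. Depth is unknown, so the counting error of low levels cannot be given.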

Other observations

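Several of the genes with the lowest ratios encode enzymes that conjugate foreign compounds. They were picked after their values were seen, and no list of such genes was made. Gstt1, Gstt2 and Gstt3, glutathione S-transferases of the theta class, were lower in high-score cells, with log2 ratios of -2.77 and -2.67 for Gstt1 and Gstt2. Gstt3 was at 0, 27.5 and 285 TPM (lowest, median, highest) in low-score and at 0, 0.355 and 34.3 TPM in high-score cells. Within library sets 1, 2 and 3 its ratio was -4.21, -4.28 and -1.33, and without set 2, with the cells divided anew, -1.60. Gsta4, a transferase of the alpha class, was at medians of 1856 and 338 TPM with a log2 ratio of -1.77. The glucuronosyltransferase genes Ugt1a6a and Ugt2b5 had log2 ratios of -2.50 and -3.27, and the sulfotransferase gene Sult1d1 one of -3.22, or -0.80 with a score corrected for the number of detected genes. Ugt2b5 was above 0 in only 10 low-score and 4 high-score cells and had a ratio of 0.20 in set 3. Members of these families resemble each other, so their single values are uncertain.

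Sprr1a and Ivl, known as genes of the squamous cell envelope, are given as single genes, Ivl chosen after its values were seen. Sprr1a was at 0, 250 and 12478 TPM in low-score and at 0, 29.6 and 1615 TPM in high-score cells, with log2 ratios of -2.59, -4.69 and -3.31 in the sets. Ivl, which encodes involucrin, had medians of 8.63 and 0.734 TPM, and its ratio of -3.39 was -6.17, -5.08 and -0.60 in the sets. Angpt2, a ligand of the endothelial Tie2 receptor, had medians of 9.81 and 0 TPM and a log2 ratio of -3.66. The secreted gene Tff1 was above 0 in 1 low-score cell, at 1723 TPM, and in 1 high-score cell, at 33.4 TPM, so its ratio of -4.73 rests on 1 cell; it is under the floor and not among the 6827 genes.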
